A study of Rattus norvegicus with 16 samples.

Results

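Nrf2 and 7 antioxidant enzymes were followed one by one in the hearts of rats treated with doxorubicin (DOX), an anthracycline given against cancer that can damage the heart. The 8 genes were taken from a list of identifiers that was drawn up with earlier results of these data known: Nfe2l2, Hmox1, Nqo1, Gclc, Gclm, Sod1, Sod2 and Cat. They are 8 of the 32545 genes in the table of counts. All 8 passed the filter on low counts, which left 13607 genes to test.

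The study treated rats with weekly intravenous injections and measured heart RNA by RNAseq, and 1 question behind the RNAseq was whether genes of oxidative stress were altered in the treated heart. Its gene set analysis found no change in sets tied to oxidative stress or reactive oxygen species. It also measured DNA oxidation, protein nitrosylation and mitochondrial hydrogen peroxide, and reported no evidence of oxidative stress. Those results concern gene sets and other molecules, while single genes are compared here. All animals were male Wistar rats, 6 to 8 weeks old when a 6-week protocol began. The saline group had 10 hearts, from rats that by the labels received 5 weekly injections of saline. The DOX high group had 6 hearts, from rats given 3 mg per kg of DOX once a week, 5 times (15 mg per kg in all). Each library came from the heart tissue of 1 rat. RNA of whole tissue mixes heart muscle cells with other cell types, so fewer cells of a type and less RNA per cell cannot be told apart. The tables name genes by identifier only and no list of markers could be matched to them, so the labelled tissue was not checked against markers of the heart.

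Nrf2, the product of Nfe2l2, is a transcription factor that Keap1 binds and sends for degradation in unstressed cells. When oxidants or electrophiles modify Keap1, Nrf2 is stable, enters the nucleus and, paired with a small Maf protein, binds antioxidant response elements in the promoters and enhancers of its target genes. Much of its control therefore lies in the protein and not in the RNA. Hmox1 (haem oxygenase 1), Nqo1 (a quinone reductase) and both subunits of the enzyme that makes the glutathione precursor, Gclc and Gclm, are classical targets. Superoxide dismutases Sod1 (cytosolic) and Sod2 (mitochondrial) and catalase (Cat), which breaks down hydrogen peroxide, are the standing antioxidant enzymes of the cardiomyocyte.

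The promoters of the regulator and of both glutamate cysteine ligase subunits are shown because Nfe2l2 is one of the genes that passed the test and because the balance of Gclm and Gclc differed between the groups. Each is a RefSeq window of 300 bases around the gene start, most of it before the start, in the GRCr8 assembly, which is not the build the counts were made on. Capitals mark the antioxidant response element core TGACNNNGC, searched on both strands. Nfe2l2 lies on the minus strand (chr3:81028950-81029249), Gclc on the plus strand (chr8:87510226-87510525) and Gclm on the plus strand (chr2:213031885-213032184).
Nfe2l2: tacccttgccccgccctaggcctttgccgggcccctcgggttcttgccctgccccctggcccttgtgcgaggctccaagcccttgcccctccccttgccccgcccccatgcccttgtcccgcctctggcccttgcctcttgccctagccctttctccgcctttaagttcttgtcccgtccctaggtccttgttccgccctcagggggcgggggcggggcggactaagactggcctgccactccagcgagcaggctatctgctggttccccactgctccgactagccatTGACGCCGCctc
Gclc: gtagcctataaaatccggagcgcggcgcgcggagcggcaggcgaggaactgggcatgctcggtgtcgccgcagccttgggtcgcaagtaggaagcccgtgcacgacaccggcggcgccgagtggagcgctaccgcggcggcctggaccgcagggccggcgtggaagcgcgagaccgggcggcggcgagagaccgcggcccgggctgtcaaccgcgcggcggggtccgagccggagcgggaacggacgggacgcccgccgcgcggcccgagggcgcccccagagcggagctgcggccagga
Gclm: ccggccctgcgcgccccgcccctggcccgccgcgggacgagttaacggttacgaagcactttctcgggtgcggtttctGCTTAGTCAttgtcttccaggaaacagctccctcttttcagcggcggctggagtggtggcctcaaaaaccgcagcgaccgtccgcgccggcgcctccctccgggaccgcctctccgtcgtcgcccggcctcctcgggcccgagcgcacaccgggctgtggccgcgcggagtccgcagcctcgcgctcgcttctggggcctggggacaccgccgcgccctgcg
The core began 39 bases after the start of Nfe2l2, as TGACGCCGC on the strand of the gene. In Gclm it lay 172 bases before the start, on the opposite strand, where it reads TGACTAAGC. The window of Gclc held no match. Of the 8 genes 7 had a window, Hmox1 being without one. The core was in 3 of the 7 windows, the last being that of Sod2, and in 12.1% of all 33469 RefSeq promoter windows of this length. The looser core TGANNNNGC was in 4 of the 7, Nqo1 being the addition, and in 40.5% of all windows. These matches describe letters in a short window and say nothing of binding.

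Library totals ran from 13784896 to 16842418 counts in saline hearts and from 15369246 to 18025615 in DOX high hearts. One library of each group was singled out, though other saline libraries were about as unlike the rest of their group. Saline rats 10, 6 and 36 had a median Pearson r across genes of 0.942, 0.946 and 0.951 with the other saline libraries. The library labelled saline rat 37 resembled the DOX high libraries more than its own group, with a median Pearson r across genes of 0.973 with the DOX high libraries and 0.946 with the other saline libraries, while each of the other 9 saline libraries was closer to its own group. DOX high rat 32 was the least alike to the rest of its group, with a median r of 0.918, and its 10 most abundant genes took 18.7% of its counts against 27.8% to 31.1% in the other 5. The fold changes are therefore also given without these libraries. Leaving out a saline library that resembles the DOX high group favours a difference, so fits without rat 37 are no independent check. The rats were also numbered in separate runs, 5 to 10 and 30 to 39, and all DOX high rats and 4 saline rats fell in the second run. The labels do not say what the numbers stand for. By the study's reporting summary, rats got consecutive numbers whatever their treatment. Whether the runs were separate batches is not stated there.

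Per gene length, in TPM (counts divided by gene length and scaled to 1 common total in each library), the enzymes that handle superoxide and hydrogen peroxide were far above the Nrf2 targets. Sod1 averaged 479 ± 40.6 TPM in saline hearts (SD, n = 10), Sod2 259 ± 35.9 TPM and Cat 173 ± 41.4 TPM. Nfe2l2 itself stood at 35.8 ± 6.47 TPM, above the level of its targets. Gclm followed at 21.4 ± 7.44 TPM, Nqo1 at 13.3 ± 5.94 TPM, Hmox1 at 11.9 ± 5.82 TPM and Gclc at 7.38 ± 3.11 TPM. The step from Cat to Nfe2l2 was present in each of the 16 hearts, as were the steps from Sod1 to Sod2 and from Nfe2l2 to Gclm. Nqo1 and Hmox1 were not separated by their spread: Nqo1 was the higher in 7 of 10 saline hearts and in 2 of 6 DOX high hearts. The mean TPM of Sod1 was at percentile 98.6 of the genes tested and that of Gclc at percentile 51.4.

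**Figure D1:**
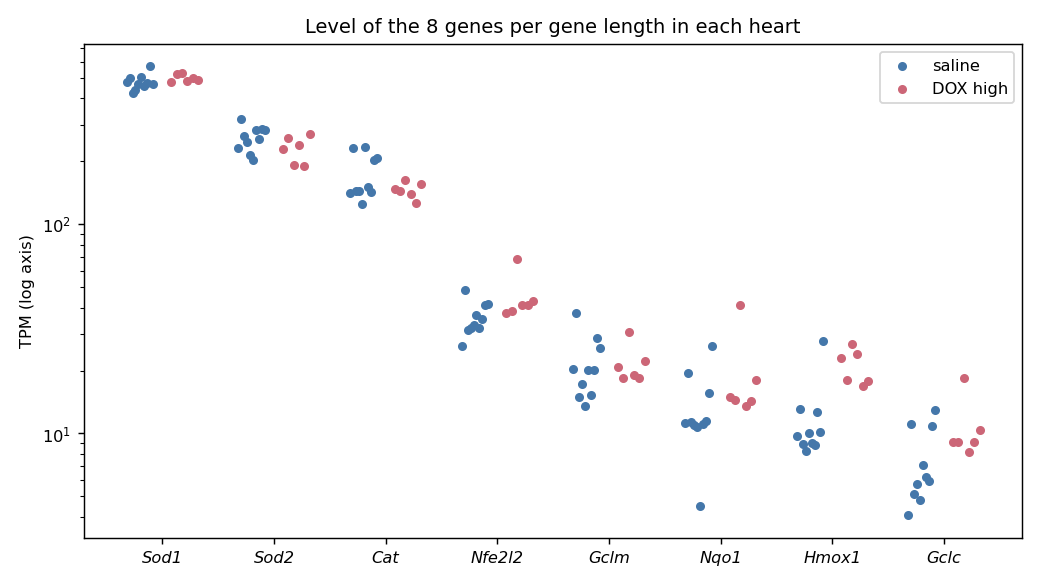
TPM (log axis) of the 8 genes in each heart, ordered by their mean in saline hearts; each point is 1 heart (10 saline, 6 DOX high). Sod1, Sod2 and Cat lie above the other 5 genes in every heart, and Nqo1 and Hmox1 overlap.

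In the comparison of DOX high with saline hearts, Nfe2l2 and Hmox1 passed the test and both were higher in DOX high hearts. Hmox1 rose 1.74-fold and Nfe2l2 1.20-fold. All DOX high rats lay in 1 number run, and with the run as a covariate neither call remained (edgeR, adjusted p = 0.164 for Nfe2l2 and 0.342 for Hmox1) and calls over all genes fell from 851 to 2. The other 6 genes did not pass: Nqo1 and Gclc lay above saline in the fit, Gclm and Sod1 close to it, and Sod2 and Cat below it. Over all genes tested, 6.25% passed in either direction and 4.01% were higher in DOX high hearts, against 2 of 8, or 25%, here. The median log2 fold change of the 8 genes was 0.14, that of all genes tested -0.0047.

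**Figure D2:**
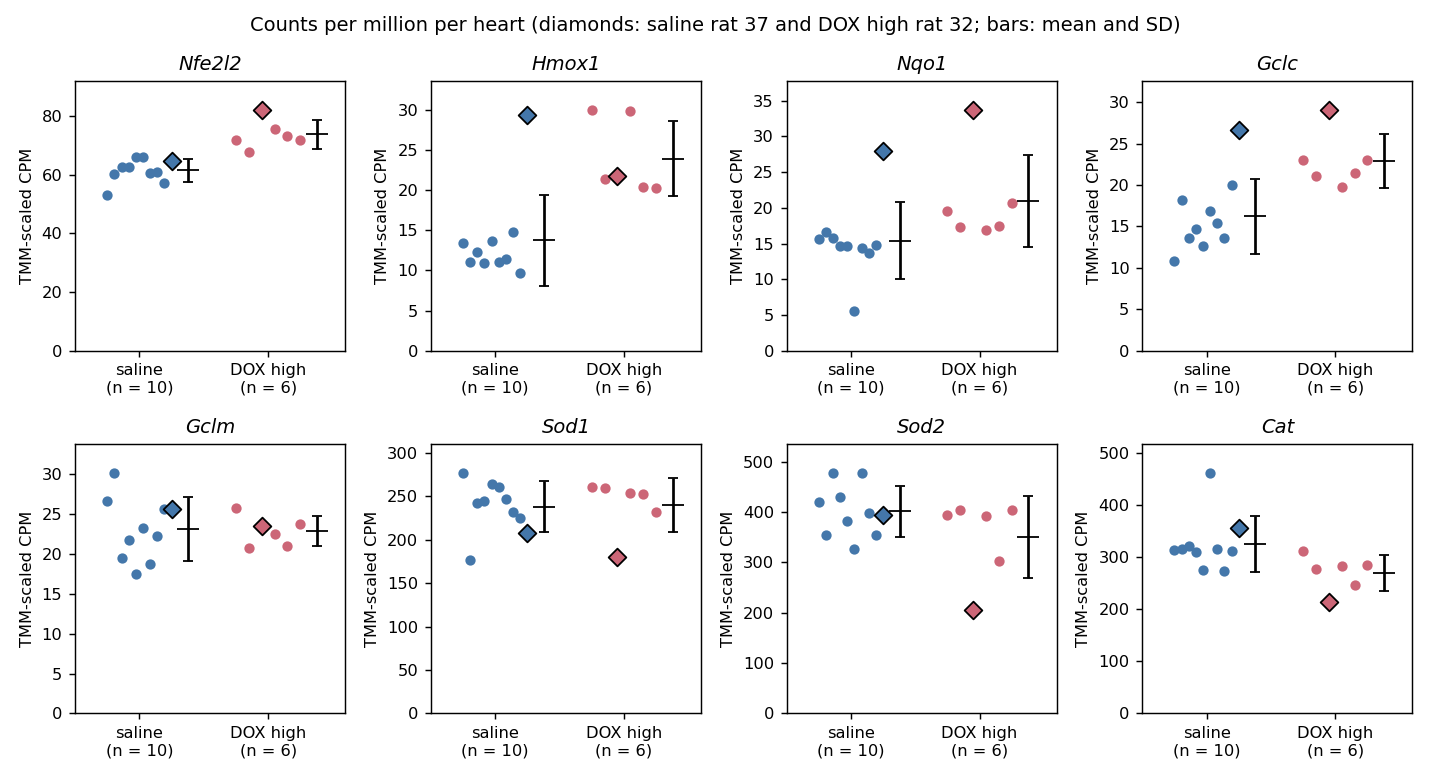
TMM-scaled CPM of each gene in each heart (10 saline, 6 DOX high), with the group mean and SD; diamonds mark saline rat 37 and DOX high rat 32. The groups are apart for Nfe2l2, and for Hmox1 all saline hearts but rat 37 lie below the DOX high hearts.

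Nfe2l2 (ENSRNOG00000001548), the gene of the regulator, ran from 53.2 to 66.1 CPM (counts scaled to a common library total, with TMM factors) in saline hearts, with a median of 61.7. The 6 DOX high hearts stood at 71.8, 67.6, 82.1, 75.7, 73.2 and 71.8 CPM (rats 30, 31, 32, 33, 38 and 39). Every DOX high heart was thus above every saline heart, which held for 0.595% of all genes tested. The group means were 61.4 ± 4.02 CPM (SD, n = 10) and 73.7 ± 4.87 CPM (SD, n = 6), a log2 fold change of 0.26 ± 0.06 (SE, adjusted p = 0.0201, edgeR's quasi-likelihood test). With the run as a covariate the log2 fold change was 0.28 ± 0.08 (SE) and did not pass (adjusted p = 0.164). It passed without rat 37, at 0.27 ± 0.06 (SE, adjusted p = 0.0082), and without rat 32, at 0.23 ± 0.06 (SE, adjusted p = 0.0394). The change was small and the spread between hearts smaller still, with a coefficient of variation of 6.54% in saline hearts. On TPM, which is not TMM-scaled, the groups overlapped, at 26.3 to 48.6 TPM in saline hearts and a mean of 45.0 ± 11.7 TPM in DOX high hearts, and limma on log2(TPM + 1) gave a log2 fold change of 0.31 ± 0.14 (SE) with an adjusted p of 0.287.

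Hmox1 (ENSRNOG00000014117) encodes the inducible enzyme that degrades haem to biliverdin, iron and carbon monoxide. Its saline hearts ran from 9.61 to 29.3 CPM with a median of 11.8, and the highest was rat 37. The 6 DOX high hearts were at 29.9, 21.4, 21.7, 29.8, 20.4 and 20.2 CPM in the same order of rats. Apart from rat 37, which only 2 of the DOX high hearts exceeded, the other 9 saline hearts reached only 14.8 CPM, so the groups overlapped through that 1 library. Group means were 13.7 ± 5.68 CPM (SD, n = 10) and 23.9 ± 4.66 CPM (SD, n = 6), and the log2 fold change was 0.80 ± 0.20 (SE, adjusted p = 0.0318, edgeR). Without rat 37 the log2 fold change was 0.99 ± 0.12 (SE, adjusted p = 7.83e-05), and no heart overlapped. Rat 37 was the only saline heart that reached the DOX high hearts, so leaving it out favours a difference. In those 15 hearts 7.9% of all genes passed upward, 13% passed in either direction, and in 2.41% every DOX high heart was above every saline heart. Without rat 32 it was 0.82 ± 0.22 (SE, adjusted p = 0.0466). With 1 of the 16 hearts left out in turn Hmox1 passed in 9 fits, and it did not pass without saline rat 7, 8, 34 or 36 or DOX high rat 30, 33 or 38 (adjusted p up to 0.0724). With the run as a covariate it was 0.55 ± 0.25 (SE) and did not pass (adjusted p = 0.342).

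Nqo1 (ENSRNOG00000012772), which reduces quinones by 2 electrons and so spares the cell a semiquinone, ran from 5.56 to 27.9 CPM in saline hearts, with a median of 14.8. The lowest was rat 10 and the highest rat 37, and the 8 between them lay close together, between 13.6 and 16.6 CPM. DOX high hearts were at 19.6, 17.4, 33.7, 16.9, 17.4 and 20.6 CPM, the highest being rat 32. All 6 exceeded every saline heart but rat 37. The log2 fold change of 0.45 ± 0.23 (SE) did not pass (adjusted p = 0.243, edgeR), nor did 0.59 ± 0.20 without rat 37 (adjusted p = 0.0663). The value rested in part on rat 32, without which it was 0.25 ± 0.22 (SE, adjusted p = 0.533). Without both rat 37 and rat 32 it was 0.40 ± 0.18 (SE, adjusted p = 0.155).

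Gclc (ENSRNOG00000006302), the catalytic subunit of glutamate cysteine ligase, ran from 10.8 to 26.6 CPM in saline hearts with a median of 15.1, and rat 37 was again the highest. DOX high hearts were at 23.1, 21.1, 29.1, 19.7, 21.4 and 23.0 CPM. On CPM all but 1 of them lay above the other 9 saline hearts, whose highest value was 19.95 CPM in rat 36. On TPM only rat 32 did so, and the other 5 DOX high hearts reached 10.4 TPM, below saline rat 6 at 11.1 TPM. The log2 fold change was 0.49 ± 0.16 (SE, 95% interval 0.16 to 0.83), which did not pass over all genes tested (adjusted p = 0.0685, edgeR). It passed without rat 37, at 0.60 ± 0.12 (SE, adjusted p = 0.0056), where 13% of all genes passed. With DESeq2 on all hearts it also passed (adjusted p = 0.0402), as did 1574 of 13365 genes. Without rat 32 it was at 0.41 ± 0.17 (SE, adjusted p = 0.158), where 4.46% of all genes passed. With the run as a covariate it was 0.28 ± 0.18 (SE) and did not pass (edgeR, adjusted p = 0.513).

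Gclm (ENSRNOG00000013409), the modifier subunit of the same enzyme, had close group means. They were 23.1 ± 3.98 CPM in saline hearts (SD, n = 10, range 17.4 to 30.2) and 22.9 ± 1.87 CPM in DOX high hearts (SD, n = 6, range 20.8 to 25.7), and the DOX high hearts lay within the saline range. The log2 fold change was -0.02 with a 95% interval from -0.24 to 0.21, so changes beyond about that size in either direction lay outside the interval (adjusted p = 0.947, edgeR). Without rat 32 it was -0.03 ± 0.12 (SE, adjusted p = 0.917). The sign was not stable, being positive on TPM and, at 0.0029, without rat 37.

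The subunits were compared within each heart, where library scaling cancels. The ratio of Gclm to Gclc, in TPM, ran from 1.97 (rat 37) to 5.03 (rat 5) in saline hearts. It was 2.28, 2.01, 1.66, 2.33, 2.01 and 2.12 in the DOX high hearts of rats 30, 31, 32, 33, 38 and 39, all below every saline heart but rat 37. On the log2 scale the ratio was 1.57 ± 0.35 (SD, n = 10) in saline and 1.04 ± 0.18 (SD, n = 6) in DOX high hearts, a difference of -0.53 (two-sided exact permutation test, p = 0.00337, adjusted over 2 ratios p = 0.00674). The ratio thus differed between the groups, although neither gene passed alone. It was adjusted over 2 ratios and the genes over all 13607 tested, so these calls do not share 1 threshold. Unadjusted, Gclc alone had p = 0.00619 (edgeR) at a log2 fold change of 0.49, and Gclm was at -0.02. The difference in the ratio therefore largely restates that of Gclc. Among rats 30 to 39 the difference was -0.32 and did not pass (exact permutation test, adjusted p = 0.0619). Among the same rats without rat 37 it was -0.45 (exact permutation test, adjusted p = 0.0238). That fit was added after the data were seen. It leaves out the only saline heart that overlapped the DOX high hearts, and its unadjusted p is the smallest that 84 assignments allow. It is therefore no independent check of the ratio.

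**Figure D3:**
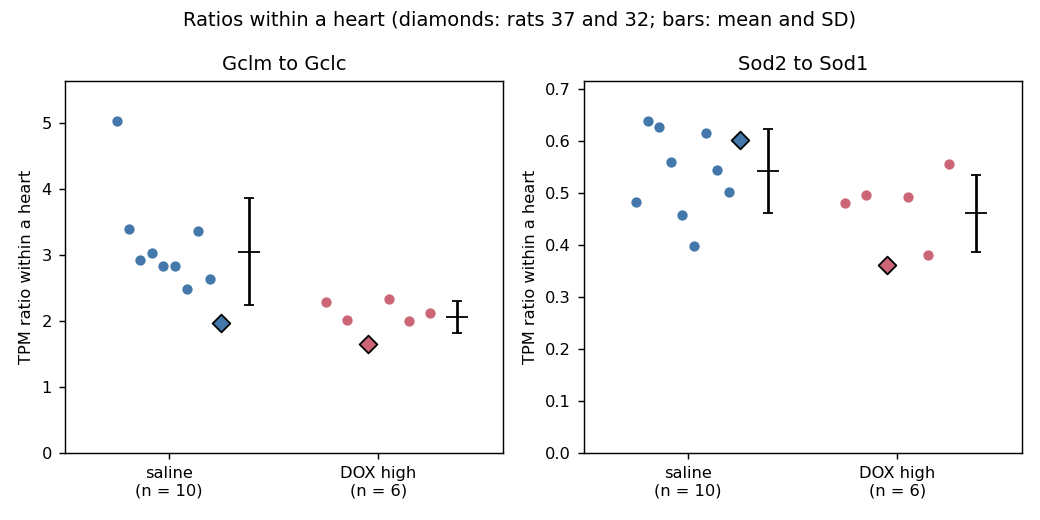
Ratio of Gclm to Gclc and of Sod2 to Sod1, each as TPM over TPM within a heart (10 saline, 6 DOX high), with the group mean and SD; diamonds mark rats 37 and 32. For Gclm to Gclc the DOX high hearts lie between 1.66 and 2.33, and saline rat 37, at 1.97, is the only saline heart among them.

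Sod1 (ENSRNOG00000002115), the cytosolic copper and zinc superoxide dismutase, was at 238 ± 29.3 CPM in saline (SD, n = 10) and 240 ± 31.2 CPM in DOX high hearts (SD, n = 6). Its log2 fold change was 0.01, with a 95% interval from -0.20 to 0.23 (adjusted p = 0.955, edgeR), and it was -0.0067 without rat 37 and 0.08 ± 0.09 without rat 32 (SE). In DOX high hearts, all but 1 lay between 232.0 and 260.7 CPM, and rat 32 stood below them at 179.9 CPM. The saline hearts ranged from 176.8 to 277.3 CPM and spanned all of these. On TPM, DOX high rat 32 was instead the highest of its group for Sod1, at 528.0 TPM.

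Sod2 (ENSRNOG00000019048), the manganese enzyme of the mitochondrial matrix, was at 402 ± 51.0 CPM in saline hearts (SD, n = 10, range 326.7 to 478.5). DOX high hearts were at 393.7, 405.2, 205.2, 391.9, 302.8 and 404.9 CPM. Rats 32 and 38 lay below every saline heart, and the other 4 were within the saline range. The log2 fold change of -0.20 ± 0.14 (SE, 95% interval -0.48 to 0.09) did not pass (adjusted p = 0.400, edgeR). It was -0.20 ± 0.14 without rat 37 (SE, adjusted p = 0.391) and -0.08 ± 0.10 without rat 32 (SE, adjusted p = 0.656). The ratio of Sod2 to Sod1 within a heart averaged -0.90 ± 0.22 (log2, SD, n = 10) in saline and -1.13 ± 0.24 (log2, SD, n = 6) in DOX high hearts. That difference, -0.24, was not resolved from the spread between hearts (two-sided exact permutation test, adjusted p = 0.0656), and it was -0.31 among rats 30 to 39 (exact permutation test, adjusted p = 0.0619).

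Cat (ENSRNOG00000008364), the peroxisomal catalase, ran from 272.9 to 462.0 CPM in saline hearts with a median of 315.0, and the highest, rat 10, was also the heart with the lowest Nqo1. DOX high hearts were at 311.7, 277.6, 214.3, 282.5, 247.0 and 285.7 CPM. On CPM all 6 lay below the saline median, and 2 of them, rats 32 and 38, below every saline heart. On TPM 3 of the 6 lay below the saline median and 0 below every saline heart. The log2 fold change was -0.27 ± 0.11 (SE, 95% interval -0.50 to -0.04), which did not pass after adjustment over all genes (adjusted p = 0.144, edgeR). It was -0.25 ± 0.11 without rat 37 (SE, adjusted p = 0.158) and -0.21 ± 0.11 without rat 32 (SE, adjusted p = 0.254). It was negative in all 40 alternative analyses and passed in 0 of them (adjusted p = 0.0875 to 0.650).

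Heart by heart, on TMM-scaled CPM, saline rat 37 had the pattern of the DOX high group in Hmox1, Nqo1 and Gclc but not in Nfe2l2 or Cat. It was the highest of the 10 saline hearts for Hmox1, Nqo1 and Gclc. It was only number 3 for Nfe2l2, number 4 for Gclm and number 9 for Sod1. For Cat it was number 2 from the top, while all 6 DOX high hearts lay below the saline median (3 of the 6 on TPM). On TMM-scaled CPM, DOX high rat 32 was the highest of its 6 for Nfe2l2, Nqo1 and Gclc and the lowest for Sod1, Sod2 and Cat. Its TMM factor was 1.36. On TPM, which is not TMM-scaled, rat 32 was instead the highest of the 6 for Sod1 (528.0 TPM) and Cat (162.4 TPM). Its Sod2 was at 191.5 TPM, beside 190.7 TPM in rat 38. On the log2 scale rat 37 was 1.30 above the saline median for Hmox1, 0.91 for Nqo1 and 0.82 for Gclc. What sets these libraries apart was not tested.

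**Figure D4:**
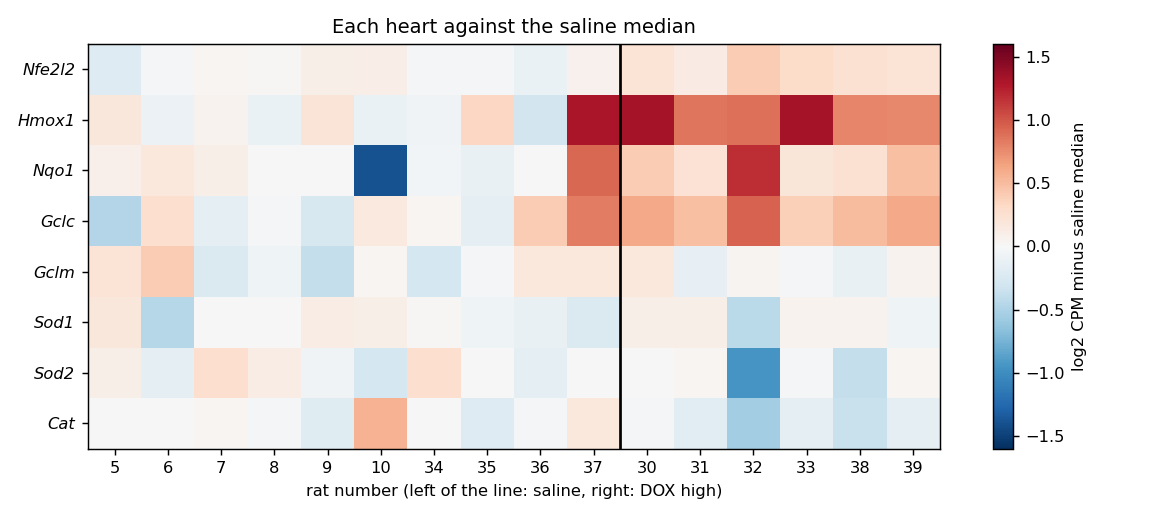
Log2 CPM of each gene in each heart minus the median of the 10 saline hearts (red above, blue below); columns are rats, saline to the left of the line and DOX high to the right. Hmox1, Nqo1 and Gclc are above the saline median in all 6 DOX high hearts and most of all in saline rat 37 among the saline hearts; Nqo1 of saline rat 10 is the lowest value at -1.39.

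Restricted to rats 30 to 39, with 4 saline and 6 DOX high hearts, none of the 8 genes passed, and neither did any of the 13730 genes tested by edgeR's quasi-likelihood test, of which 1891 had an unadjusted p under 0.05. DESeq2 was not run on these hearts. Nfe2l2 kept its size there, at a log2 fold change of 0.27 ± 0.08 (SE, adjusted p = 0.183). Hmox1 was at 0.55 ± 0.29 (SE, adjusted p = 0.427), Nqo1 at 0.24 ± 0.26 (SE, adjusted p = 0.703) and Gclc at 0.27 ± 0.19 (SE, adjusted p = 0.535), all smaller than over the 16 hearts. When rat 37 was also left out, Hmox1 stood at 1.00 ± 0.20 (SE) and passed (adjusted p = 0.0376), where 2.2% of all genes passed, whereas Nfe2l2 at 0.31 ± 0.08 (SE, adjusted p = 0.0871) and Gclc at 0.49 ± 0.16 (SE, adjusted p = 0.137) did not. In the other 9 fits that left out 1 of these 10 hearts, Hmox1 did not pass and was lowest, at 0.37 ± 0.28 (SE, adjusted p = 0.681), without saline rat 36. Nqo1 moved to 0.55 without rat 37, 0.13 without saline rat 35 and 0.05 without rat 32. Gclc was lowest without saline rat 35, at 0.14 ± 0.18 (SE, adjusted p = 0.785). Nfe2l2 stayed between 0.24 and 0.31 in all 10 and passed in 0 of them.

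**Figure D5:**
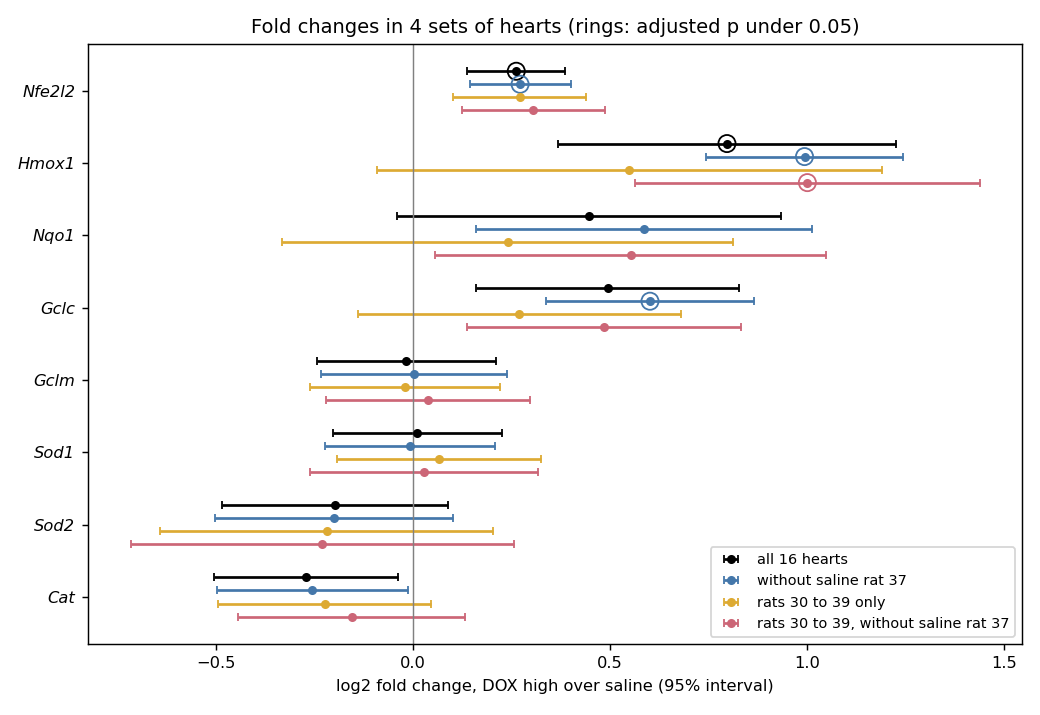
Log2 fold change of DOX high over saline with its 95% interval for each gene, from edgeR, in 4 sets of hearts (all 16, without saline rat 37, rats 30 to 39 only, and those without rat 37); rings mark an adjusted p under 0.05. Nfe2l2 is near 0.3 in each set, and Hmox1 is near 1.0 in both sets without rat 37 and lower in both that include it.

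Between the saline hearts of both runs (rats 34 to 37 against 5 to 10) none of the 8 genes passed, nor did any of 13413 genes by edgeR, where 591 had an unadjusted p under 0.05, while DESeq2 called 22 genes. Hmox1 was 0.44 ± 0.27 higher on the log2 scale in rats 34 to 37 (SE, adjusted p = 0.918) and -0.01 without rat 37. Nfe2l2 was at -0.02 ± 0.08 (SE, adjusted p = 0.975).

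Among the 10 saline hearts, no relation of Nfe2l2 with the 7 other genes passed on TMM-scaled log2 CPM. Pearson's r ran from -0.46 for Gclm to 0.31 for Cat and Spearman's rho from -0.54 for Gclm to 0.30 for Cat, with adjusted permutation p of 0.726 to 0.861 for r and 0.796 to 0.864 for rho. Without the 2 hearts farthest from the median of Nfe2l2, r ran from -0.43 for Sod2 to 0.49 for Sod1. On log2(TPM + 1), where the genes of a library share 1 scaling total, 3 of the 7 passed by Pearson's r: Gclc at r = 0.91 (adjusted permutation p = 0.00133), Cat at r = 0.80 (adjusted permutation p = 0.0184) and Gclm at r = 0.78 (adjusted permutation p = 0.0184). By Spearman's rho on that scale only Gclc passed (rho = 0.87, adjusted permutation p = 0.0142), while Gclm and Cat had rho = 0.66 (adjusted permutation p = 0.0781 for each). On log2 CPM none passed by either measure.

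Of the other genes tested, the one whose pattern over the 16 libraries was most like Nfe2l2 was ENSRNOG00000005214 (Pearson r = 0.91 of log2 CPM), at 2.38 ± 0.787 CPM in saline (SD, n = 10) and 6.67 ± 3.47 CPM in DOX high hearts (SD, n = 6). For Hmox1 it was ENSRNOG00000002012 (r = 0.95), at 2.03 ± 0.683 CPM in saline (SD, n = 10) and 3.45 ± 0.370 CPM in DOX high hearts (SD, n = 6). Both groups enter these correlations, which describe likeness and carry no test.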

How the data were processed

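Polyadenylated RNA of 16 rat hearts was sequenced from strand-specific libraries. The authors deposited raw counts per gene, made by their processing notes with HISAT2 and featureCounts (Subread 1.5.0) on Rnor_6.0, and TPM values computed by the authors from those counts. Counting used default parameters by the study's methods, which do not use strand, so reads of overlapping antisense genes cannot be told apart. Among the deposited TPM values, 1 was empty. Saline rats received 5 injections by the labels, and the study's methods give another number.

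Genes were named by the symbols given with the list of 8 identifiers. The members and lists were chosen with earlier results of these data known. Counts were filtered with filterByExpr, scaled by TMM and tested with edgeR 4.0.16 (R 4.3.3). The threshold was a Benjamini-Hochberg adjusted p under 0.05 over all genes tested. The number of rats is n, and p-values set a group difference against the spread between these hearts. Without the run as a covariate, they do not separate treatment from the rat number run. The biological coefficient of variation was 0.316. Alternatives used DESeq2 1.42.0, limma 3.58.1 on log2(TPM + a pseudocount of 1 or 0.1), upper-quartile scaling, other filters, a stricter threshold, left-out libraries and the rat number run; fits within a run or with the run as a covariate that also left out a library were added after the data were seen. Log2 CPM used a prior count of 2. Ratios were tested by exact permutation, and correlations by 100000 permutations. No pair of libraries within a group was a duplicate (60 pairs, lowest chi-square per degree of freedom 13.1). The fit was tested on simulated data. The genes printed as most alike were those with the highest Pearson r to Nfe2l2 and Hmox1. Planned counts of pathway and cell type marker lists were not made, since the gene table used here held 0 rat Ensembl identifiers.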

Additional observations from a re-analysis of the deposited data

Results flagged for a closer look

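In each group, the highest and lowest heart were set against the others by the gap to the nearest value over the group's range (Dixon's critical values). Of 20 groups looked at, 7 held such a heart, where about 1 is expected if values are normally spread. The groups share the same 16 libraries and rats 37 and 32 recur, so the 7 are not separate oddities. Saline rat 37 stood apart for Hmox1, at 29.3 CPM with the nearest heart at 14.8 CPM, and for Nqo1, at 27.9 CPM with the nearest at 16.6 CPM. DOX high rat 32 stood apart for Nqo1 (33.7 CPM, nearest 20.6 CPM), Gclc (29.1 CPM, nearest 23.1 CPM) and Sod1 (179.9 CPM, nearest 232.0 CPM). On TPM its Sod1 was instead the highest of the DOX high hearts, at 528.0 TPM. Saline rat 10 stood apart for Cat, at 462.0 CPM with the nearest heart at 355.5 CPM. Saline rat 5 had a Gclm to Gclc ratio of 5.03 with the nearest heart at 3.40. The cause was not tested for any of these.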

How the results depend on the processing

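No paired analysis was possible because no rat number occurs in both groups. Alternatives for pathway lists were not run, since their names could not be matched. Over 40 alternatives, Nfe2l2 passed in 23 and Hmox1 in 20 and both stayed positive in all 40, Gclc passed in 3, and the other 5 genes in 0; Nqo1 and Gclc stayed positive and Sod2 and Cat negative in all 40. When 1 of the 16 hearts was left out in turn, Nfe2l2 passed each time (adjusted p = 0.0082 to 0.0437) and Hmox1 in 9 of 16 (7.83e-05 to 0.0724), being lost without saline rat 7, 8, 34 or 36 or DOX high rat 30, 33 or 38.

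The 851 genes called became 1574 with DESeq2, 255 and 285 with limma on log2(TPM + 1) and log2(TPM + 0.1), 110 at an adjusted p under 0.01, 0 in rats 30 to 39, 2 with the run as a covariate and 1766 without rats 37 and 32; with 1 library left out, the run settings included, they ranged from 0 to 1762. The 2 members called became 1 and 1 with limma on both scales, 0 at the stricter threshold, 0 in rats 30 to 39 and 0 with the run as a covariate, and 1 to 3 with 1 of the 16 libraries left out (0 to 1 where the fit was also within rats 30 to 39 or had the run as a covariate). Gclm turned positive with limma (0.052 and 0.056), and ranged from -0.054 to 0.030 with 1 of the 16 libraries left out, and from -0.10 to 0.041 with the run settings included; Sod1 ranged from -0.033 to 0.081, and to 0.14 with the run settings included. Between saline runs, signs turned for Nfe2l2 (0.13), Sod1 (0.065) and Cat (0.081) with limma, for Hmox1 (-0.015) and Gclm (-0.058) without rat 37, and for Gclm with upper-quartile scaling (-0.0018) and no filter (-0.0052). The Gclm to Gclc difference was -0.32 in rats 30 to 39. The Sod2 to Sod1 difference ranged from -0.29 to -0.17 with 1 heart left out, and passed without saline rat 9 or 10 or DOX high rat 39. With log2(TPM + 1), 3 of 7 correlations with Nfe2l2 passed by Pearson's r and 1 of 7 by Spearman's rho, with no share over all genes counted. On that scale r turned positive for Nqo1 (0.48), Gclm (0.78), Sod1 (0.53) and Sod2 (0.56). On log2 CPM r of Hmox1 was -0.32 in rats 5 to 10. With 1 saline heart left out r ranged from -0.48 to 0.30 for Nqo1, -0.11 to 0.49 for Gclc, -0.20 to 0.43 for Sod1, -0.33 to 0.063 for Sod2 and -0.058 to 0.54 for Cat. The cause was not tested. The targets had 76 to 800 counts per heart, the lowest and highest both being of Nqo1.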

Other observations

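Within the 6 DOX high hearts, r with Nfe2l2 on log2 CPM was 0.76 for Nqo1 and 0.66 for Gclc and -0.82 for Sod1, -0.83 for Sod2 and -0.72 for Cat, with DOX high rat 32 at an end of the range for each of these genes. Without the 2 hearts farthest from the median of Nfe2l2, r was -0.89 for Nqo1, -0.99 for Gclc, 0.27 for Sod1, -0.11 for Sod2 and -0.31 for Cat, so the values of all 5 genes depended on those hearts. The first values describe 6 libraries, and the second rest on fewer, with 2 of the 6 left out. That is too few hearts to read a relation from r, and none of these values carries a test.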
